A study of Homo sapiens with 10 samples.

Results

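The short arm of chromosome 8 is described here gene by gene in a chronic myeloid leukaemia (CML) cell line and its cyclophosphamide-resistant subline. Members were all probe sets that the platform annotation assigns to 1 gene symbol and whose gene starts below base 45000000 of chromosome 8 in assembly GRCh38, a rule of position alone, although the arm was picked for description with earlier results of these data known. The rule found 154 of 12558 probe sets, which stand for 116 of 8226 named genes. Of these genes 91 had 1 probe set, and 25 had several, up to 7 for RBPMS.

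The study hybridised total RNA of 5 samples of sensitive cells and 5 of resistant cells to Affymetrix oligonucleotide arrays, 1 sample per array. The sensitive group is the CML line itself, and the resistant group is a subline derived from it. CML as a disease is driven by the BCR-ABL fusion kinase, and cyclophosphamide is an alkylating drug that crosslinks DNA. Per the labels' protocols all cells were grown in tissue culture medium, and the labels name neither the line nor the drug dose, nor the way resistance was raised. Each group is a single line, the samples are not stated to be separate cultures, so p-values cover no more than the scatter among the samples at hand, part or all of which could be technical.

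The short arm of chromosome 8 holds a cluster of defensin genes, which encode antimicrobial peptides, near its telomere. Farther along lie the genes of the receptors for the death ligand TRAIL, and close to the centromere lie the growth factor receptor gene FGFR1 and the chromatin regulator gene KAT6A, both known as fusion partners in myeloid neoplasms. Several genes of the arm are studied as tumour suppressor candidates, among them DLC1 and TUSC3. Genes of an arm share a position and not a function, so their roles are given one by one.

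A probe set's signal is an intensity on a linear scale, and its background is the 95th percentile of 32 control probe sets without a human target on the same array, here called the limit. The limit lay between 319.7 and 739.8. A log2 difference is resistant minus sensitive on the scale log2(signal + 114.8), and a probe set is called at an adjusted p under 0.05 in limma with Benjamini-Hochberg adjustment over all 12558 probe sets. All adjusted p-values below come from that fit. A gene is called bright where the mean log2 signal of its best measured probe set over all 10 arrays lay above the mean limit, which keeps 64 of the 116 genes. The group labels do not enter this mean, but the levels of both groups do. KBTBD11, RBPMS, STAR and DMTN are bright only through the group where they were high. Among them KBTBD11 alone was lower in resistant cells. DLC1 and EPHX2 are not bright although all resistant arrays exceeded the limit. Counts over bright genes are therefore descriptions. Signals of different genes are not compared with each other, since probe sets differ in how strongly they bind.

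Of 13 measured blood cell markers, 11 lay above the limit on all sensitive and 9 on all resistant arrays, among them PTPRC, the common leukocyte antigen CD45, at 6675 ± 1030 and 5300 ± 1035 (SD, n = 5 each). KIT, a receptor of early blood cells, was above the limit on none of the arrays. Of 8 epithelial markers, KRT8 and MUC1 were above it on all arrays, and EPCAM, KRT18, KRT19 and KRT5 on none. KRT7 exceeded it on 2 sensitive and 4 resistant arrays, and CDH1 on 3 and 2. None of the 8 was called by its best measured probe set, but 1 of them had another probe set called higher. The summed signal of 8 fibroblast markers was 1744 to 4232 in sensitive and 722 to 1948 in resistant arrays, and 5 and 8 of these markers were above the limit on no array of the group. LUM, a matrix proteoglycan gene of that list, fell from 1302 ± 559 to 237 ± 173 (adjusted p = 0.00317). Blood cell markers changed too. TAL1, a transcription factor of blood stem cells and red cell precursors, rose from 2600 ± 1020 to 10285 ± 2805 (log2 difference 1.98, adjusted p = 0.000741). The actin-binding leukocyte genes CORO1A and LCP1 fell by 0.99 and 0.98 on the log2 scale (adjusted p = 0.00759 and 0.0335). Among the blood cell markers not called, SPI1 had the lowest difference and GATA1 the highest, at -1.07 and 1.49 (adjusted p = 0.0529 and 0.14). GATA1 was split within the sensitive group, at 430.6, 510.5, 968, 3800 and 3650 in arrays 1 to 5. Sensitive arrays 4 and 5 lay within the resistant range of 3009 to 4661. SPI1 was above the limit on all sensitive arrays and on no resistant one. The part of these markers in the results below was not tested.

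The differences of short arm genes centred near 0, and a small set of the arm's genes changed strongly. DLC1, RBPMS, EPHX2, DUSP4 and STAR were higher by 2.36 to 4.16 on the log2 scale, and KBTBD11 and CHRNA6 were lower by more than 2. Of the 154 probe sets, 13 were called higher and 5 lower (8.44% and 3.25%), where 4.42% and 2.99% of all 12558 probe sets were called in these directions. The groups did not overlap in 21 of the 154 probe sets, 15 of them higher and 6 lower. Over all 12558 probe sets they did not overlap in 8.5%, 620 of them higher and 447 lower. Counted by each gene's best measured probe set, 8 of 116 genes were called higher (6.9%) and 4 lower (3.45%), against 4.94% and 3.46% of all genes. The share that fell is near the background. The share that rose is not shown to differ from it: 5 of the 13 higher probe sets belong to RBPMS alone, and 6 of the 116 genes were called higher where the arrays were brought to the same median. The median log2 difference of the 64 bright genes was 0.00, with quartiles of -0.24 and 0.29, where all 4796 bright genes had a median of 0.02 with quartiles of -0.23 and 0.28. The 52 other genes had a median of 0.08.

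**Figure D1:**
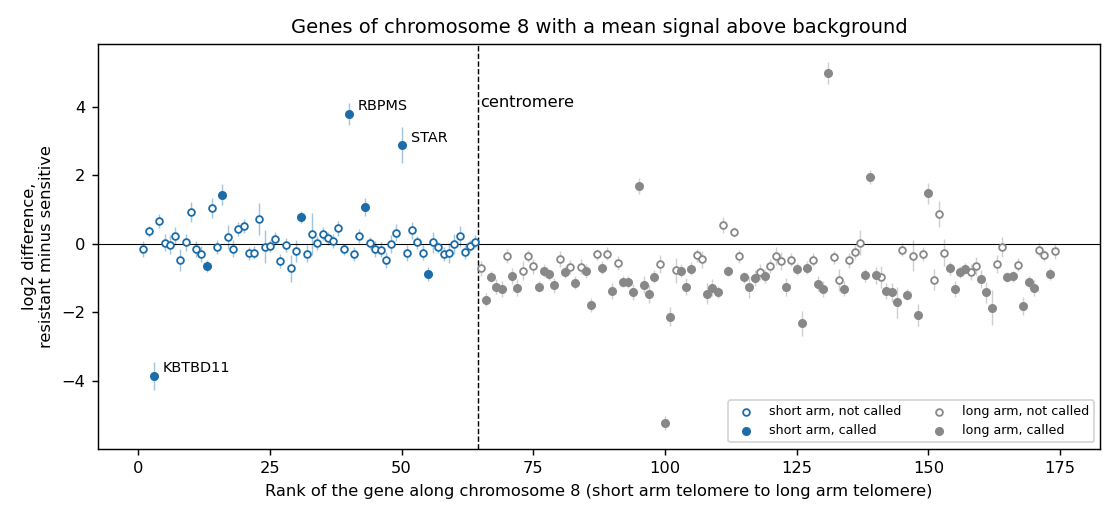
Each point is a bright gene of chromosome 8 (64 on the short arm in blue, 110 on the long arm in grey), placed by its rank along the chromosome, with its log2 difference (resistant minus sensitive, limma) on the vertical axis and bars of 1 standard error; filled points were called. Short arm genes scatter around 0 with few called genes, and long arm genes lie mostly below 0 from the first ones after the centromere; DLC1, EPHX2, DUSP4 and CHRNA6 were called but are not bright by the mean and are not drawn.

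The long arm of the same chromosome differed. Of its 110 bright genes 62 were called lower (56.4%) and 4 higher, with a median of -0.83 and 102 negative differences. On the 22 other chromosomes tested (1 to 22 without 8, and X), 1.72% to 8.96% of bright genes were called lower, and medians ran from -0.07 to 0.11, a range that holds the short arm's median and in which its 4.69% of lower calls falls. The lower values began at the centromere. The 20 bright short arm genes nearest to it, from WRN to FNTA, had a median of -0.09, with 1 called lower and 1 higher. Of these 20, 13 had negative differences, where 46.1% of bright genes off chromosome 8 did. The 20 nearest on the other side, from SPIDR to RRS1, all had negative differences, with a median of -0.86 and 12 called lower. FNTA, the last of the short arm, which encodes a subunit shared by the enzymes that attach lipid anchors to proteins such as Ras, had a log2 difference of 0.06 (SE 0.20). SPIDR, CEBPD and PRKDC, the first bright genes beyond, had -0.72, -1.63 and -0.96, of which the last 2 were called (adjusted p = 0.000102 and 0.00292). The 95% confidence interval of the difference lay wholly above the long arm's median in 52 of the 64 bright short arm genes, and in 17 of the 20 nearest to the centromere. Only 2 of the 64, KBTBD11 and ADAM9, had a difference at or below that median. The difference between the arms was not tested as such.

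Along the short arm the medians stayed within 0.09 of 0. Split in order into 3 stretches, the bright genes from ERICH1 to SORBS3 (22 genes) had a median of 0.00, those from TNFRSF10B to UBXN8 (21 genes) of 0.09 and those from PPP2CB to FNTA (21 genes) of -0.07. Calls were 2 lower and 1 higher in the first, 0 and 3 in the second, 1 and 1 in the third. DPYSL2, PTK2B and EPHX2, which all had a called probe set, lie close together, with ADRA1A and CHRNA2, neither called, between them; the first and the last rose and PTK2B was called lower in its dimmer probe set. Taken by their best measured probe set, the nearest bright neighbours on either side of the 14 genes with a called probe set had differences between -0.46 and 1.04, and of these neighbours DPYSL2 was called.

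The arrays one by one showed the same picture. For each array the median over bright genes of the log2 signal, relative to each gene's mean over the sensitive arrays, was taken as the arm's level. For the short arm it was -0.159, -0.12, -0.021, 0.227 and 0.209 in sensitive arrays 1 to 5, and 0.044, 0.078, -0.002, -0.01 and 0.077 in resistant arrays 1 to 5. The resistant arrays lie within the range of the sensitive ones. For the long arm the sensitive arrays gave 0.121, 0.162, 0.026, -0.072 and -0.204, and the resistant arrays lay between -0.892 and -0.769, below all of them. Sensitive arrays 4 and 5 were the highest of their group for the short arm and the lowest for the long arm. Medians over genes of other chromosomes spread less, from -0.034 to 0.052 in sensitive and from 0.014 to 0.079 in resistant arrays. They were taken over 4622 genes, against 64 and 110 for the arms, and a median over more genes varies less. A lower signal can reflect fewer cells with a transcript or less transcript per cell, which bulk RNA cannot tell apart.

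**Figure D2:**
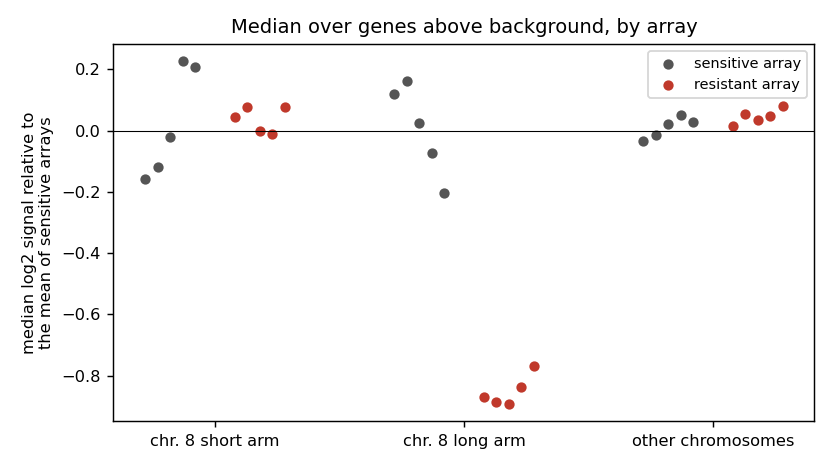
Points are arrays (5 sensitive in grey, 5 resistant in red); the vertical axis is the median over bright genes of the log2 signal relative to the gene's mean over sensitive arrays, for the short arm (64 genes), the long arm (110) and other chromosomes (4622). The groups overlap for the short arm and are apart for the long arm.

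Of the genes that rose, several were at background in sensitive cells. DLC1 encodes a GTPase-activating protein and is known as a tumour suppressor candidate. Its signals in sensitive arrays 1 to 5 were 229.7, 14.6, 19.3, 162.8 and 71.5, none above the limit, and in resistant arrays 3046, 3053, 3002, 4088 and 4137. Every resistant array was far above every sensitive one, and the gene was at least 7.07-fold higher (log2 difference 4.16, SE 0.28, adjusted p = 2.17e-06). Each such bound compares the higher group with what the lower group could at most have held, its own signal or its limit on each array, whichever is greater.

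RBPMS encodes an RNA-binding protein, and it was the gene with the most probe sets. Its best measured probe set gave 112.2, 33.3, 346.9, 230.3 and 35.7 in sensitive arrays and 3235, 3820, 2477, 3171 and 3610 in resistant arrays. The groups were widely apart, at least 6.66-fold (log2 difference 3.80, SE 0.31, adjusted p = 1.02e-05). Of its 7 probe sets 5 were called higher, with differences of 3.88, 3.80, 2.88, 2.86 and 2.01, and the sensitive arrays lay at or below the limit in all 5. The probe set with 2.01 had 2 resistant arrays above the limit. Its call was lost with signals floored at the limit (0.33, adjusted p = 0.653). The 2 RBPMS probe sets not called both had -0.41 (adjusted p = 0.614 and 0.635). The brighter of them gave 604 ± 233 in sensitive and 439 ± 231 in resistant arrays, with 4 and 1 arrays above the limit, and the dimmer exceeded it on none. The 7 probe sets thus fell into 5 that rose and a pair that were not called and had the opposite sign. Which transcripts or exons each of them covers is not given in the sources used here.

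**Figure D3:**
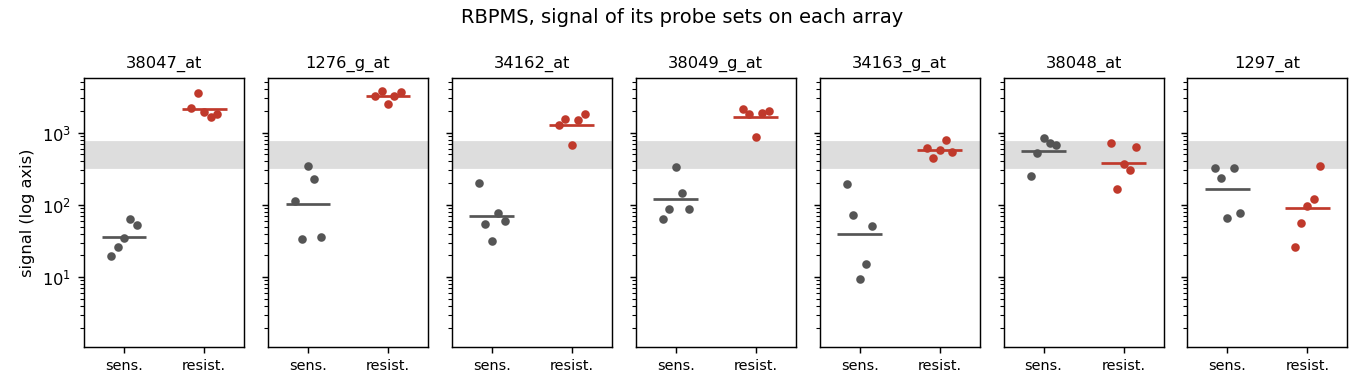
Signal of the 7 RBPMS probe sets on each array (log axis; grey points sensitive, red points resistant, n = 5 each; lines are geometric means; the grey band spans the arrays' limits from 319.7 to 739.8). In 5 probe sets all resistant arrays lie above all sensitive ones, and in the 2 at the right the groups overlap.

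EPHX2 encodes soluble epoxide hydrolase, which opens epoxides of fatty acids. It was 39.2, 31.4, 52.6, 314.9 and 31.2 in sensitive arrays and 1437, 1563, 1314, 1592 and 1747 in resistant arrays. All resistant arrays were above the limit and no sensitive array was, although sensitive array 4 was higher than its group, and the gene was at least 3.14-fold higher (log2 difference 3.12, SE 0.29, adjusted p = 2.77e-05). DUSP4, a nuclear phosphatase that inactivates ERK, was 50.7, 17.2, 38.2, 28.2 and 122.3 against 306.8, 978.4, 1142, 498.2 and 1024. The groups did not overlap, but only 3 resistant arrays were above the limit, which bounds the rise at 1.46-fold or more (log2 difference 2.36, SE 0.31, adjusted p = 0.000456). With signals floored at the limit its call was lost (adjusted p = 0.237). STAR encodes the protein that brings cholesterol into mitochondria for steroid synthesis. Its sensitive signals varied widely, at 356.2, 206.6, 86.1, 1715 and 967.2, with arrays 4 and 5 above the limit, and its resistant signals were 5275, 4360, 2312, 4726 and 4438 (log2 difference 2.88, SE 0.53, adjusted p = 0.00458). Even the lowest resistant array was above the highest sensitive one.

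A further 4 genes were above the limit on some or all sensitive arrays and rose by less. DMTN encodes dematin, which bundles actin in the membrane skeleton of red cells. It was 171.3, 680.2, 627.3, 542.5 and 367.2 in sensitive and 1635, 1156, 2270, 990 and 1194 in resistant arrays, without overlap (log2 difference 1.43, SE 0.31, adjusted p = 0.0136); 2 sensitive arrays were above the limit. DPYSL2, a partner of tubulin known from growing nerve processes, was 11764, 9875, 11638, 8942 and 12298 against 20580, 20645, 18159, 17640 and 16614. This difference of 0.78 (SE 0.17, adjusted p = 0.0126) was small and regular, and it was lost where arrays were scaled to a common median (adjusted p = 0.104). UBXN8, an endoplasmic reticulum protein that recruits the ATPase VCP, was 1087, 1223, 2596, 1541 and 1308 against 3045, 3261, 5296, 2401 and 2767. Its groups overlapped, with the highest sensitive array above the lowest resistant one, and its call (log2 difference 1.07, SE 0.27, adjusted p = 0.0311) was lost without any 1 of 7 arrays, at adjusted p-values of up to 0.0833, and with scaling to a common median (0.0557). ASAH1 encodes acid ceramidase, the lysosomal enzyme that cleaves ceramide. Its dimmer probe set had 4895 ± 1549 in sensitive and 9867 ± 1859 in resistant arrays and was called higher (a difference of 1.03, SE 0.23, adjusted p = 0.0174), without overlap, and was lost without sensitive replicate 2 (adjusted p = 0.0524). Its brighter one, at 37684 ± 12178 and 71998 ± 19721, had a like difference of 0.94 (SE 0.30) and was not called (adjusted p = 0.0881).

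KBTBD11, which belongs to a family of adaptor proteins for ubiquitin ligases, showed the largest fall on the arm. It was 4711, 3803, 4341, 3005 and 2401 in sensitive arrays and 56.3, 364.3, 14.8, 51.3 and 459.3 in resistant arrays, all 5 of these at or below the limit. The gene was at least 6.69-fold lower (log2 difference -3.86, SE 0.41, adjusted p = 8.41e-05). It lies near the telomere, and its nearest bright neighbours ARHGEF10 and MFHAS1 had differences of 0.36 and 0.67, neither called (adjusted p = 0.249 and 0.0642). CHRNA6, a subunit of nicotinic acetylcholine receptors, was 575.3, 648.3, 986.1, 1354 and 1465 in sensitive and 79.1, 75.3, 479.5, 63.6 and 31.7 in resistant arrays. It was at least 1.77-fold lower (log2 difference -2.24, SE 0.38, adjusted p = 0.00292), although it was low even in sensitive cells and its call was lost with signals floored at the limit (adjusted p = 0.0878).

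The other falls were smaller. ADAM9, a membrane-bound metalloprotease, was 1339, 1700, 1492, 2371 and 1880 against 670.2, 1081, 807.2, 1001 and 894.9, without overlap (log2 difference -0.89, SE 0.20, adjusted p = 0.0171). ATP6V1B2, a subunit of the proton pump of lysosomes, was 12802, 15460, 19455, 18449 and 18664 against 11251, 10194, 10275, 10474 and 11555. The groups were just apart (log2 difference -0.64, SE 0.17, adjusted p = 0.0433), and the call was lost without any 1 of 9 arrays (adjusted p of up to 0.0995) and under 4 other settings. PTK2B, the cytoplasmic tyrosine kinase PYK2, was called in a probe set that exceeded the limit on none of the 10 arrays (266 ± 64.2 and 113 ± 28.5, log2 difference -0.74, adjusted p = 0.0264). No fold is given for it. Flooring signals at the limit turns all its values into the limits themselves, so that setting says nothing about this probe set. The call of this gene was lost without any 1 of 6 arrays and with the replicate block (adjusted p = 0.0924). Its brighter probe set was not called, at 829 ± 320 and 644 ± 186 (log2 difference -0.28, adjusted p = 0.661).

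**Figure D4:**
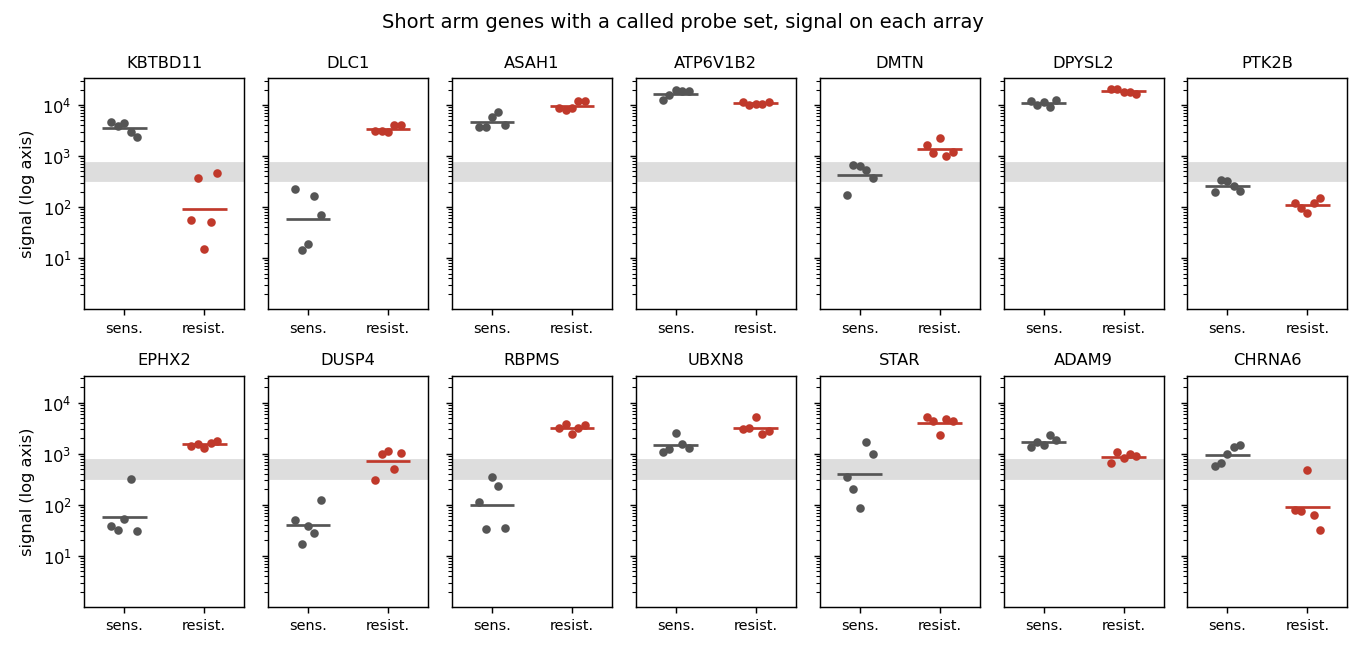
Signal on each array (log axis; grey points sensitive, red points resistant, n = 5 each; lines are geometric means; the grey band spans the limits) for the 14 short arm genes with a called probe set, in order from the telomere. ASAH1 and PTK2B are shown by their called, dimmer probe set, and the others by their best measured one; only UBXN8 has overlapping groups.

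Log2 differences of genes at background in 1 group depend on how low signals are treated. Over 17 or 18 alternative settings they ran from 2.82 to 5.06 for DLC1, from 2.74 to 4.50 for the best probe set of RBPMS, from 1.65 to 4.02 for EPHX2, from 0.67 to 3.29 for DUSP4, from -4.62 to -2.74 for KBTBD11 and from -2.91 to -0.82 for CHRNA6. Of the 18 called probe sets, 10 kept their call under every setting run: those of KBTBD11, DLC1, DMTN, EPHX2, STAR and ADAM9, and 4 of RBPMS.

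The TRAIL receptor genes, which carry or block a death signal at the cell surface, lie side by side, and 3 were measured. TNFRSF10B, the death receptor DR5, was above the limit on all arrays and varied most in sensitive cells, with 5079, 3881, 1514, 14196 and 6656 there and 8745, 5912, 7719, 11232 and 8221 in resistant arrays. The groups overlapped (log2 difference 0.72, 95% interval -0.29 to 1.72, adjusted p = 0.482). The receptors without a working death domain, TNFRSF10C and TNFRSF10D, were near background, at 769 ± 370 and 736 ± 412, and at 578 ± 210 and 467 ± 205 (adjusted p = 0.961 and 0.727). Of 8 measured genes of the same pathway elsewhere in the genome, 1 rose and 0 fell (4.94% and 3.46% of all genes): the ligand gene TNFSF10, from 776 ± 296 to 4704 ± 2240 (log2 difference 2.32, adjusted p = 0.00209). The adaptor FADD and the initiator caspases CASP8 and CASP10 had differences of -0.14, -0.17 and 0.16 and were not called. The median over the 8 genes was 0.03, as over all 8226 genes.

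Defensin genes were at background in both groups. DEFA4, DEFA5 and DEFA6 were above the limit on no array, and DEFB1, at 496 ± 226 and 432 ± 97.1, was above it on 2 sensitive arrays and 1 resistant array. None of the 4 was called by limma, nor had an unadjusted p under 0.05, with differences between -0.10 and 0.22. Neutrophil defensins such as DEFA4 are stored in azurophil granules. Of 9 neutrophil granule genes measured on other chromosomes 4 fell and 1 rose, where 3.46% and 4.94% of all genes did so. PRTN3 and AZU1 were at least 56.9-fold and 22-fold lower, ELANE at least 2.01-fold lower, CTSG fell by 2.47 on the log2 scale, and LYZ rose by 2.55-fold or more (adjusted p = 2.2e-07, 8.58e-06, 8.41e-05, 0.026 and 0.00202). The median of the 9 was 0.25, against 0.03 over all genes. MPO, an azurophil granule gene of that list, was not called (log2 difference 0.25, adjusted p = 0.835), with 1 sensitive and 2 resistant arrays above the limit. The list also holds CAMP, LCN2 and LTF, genes of other granules, with uncalled differences of 0.59, 0.38 and 0.65.

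Genes of the red cell and of mitochondrial removal differed among themselves. DMTN rose, as given above. ANK1, the ankyrin that ties spectrin to the membrane, was near background and scattered widely, at 378.5, 49.5, 1336, 810.5 and 589.2 in sensitive and 356.6, 725, 57.1, 820.1 and 673 in resistant arrays, with a difference of -0.12 (adjusted p = 0.954). BNIP3L, the mitophagy receptor NIX that clears mitochondria from maturing red cells, was bright at 25696 ± 8669 and 17046 ± 8683, with overlapping groups (log2 difference -0.72, 95% interval -1.58 to 0.14, adjusted p = 0.384). Of 10 measured genes of the red cell membrane outside the arm, 3 rose and 0 fell, where 4.94% and 3.46% of all genes did so. The adducin gene ADD2 rose by 1.40 (1075 ± 389 to 2914 ± 544, adjusted p = 0.00453), and RHAG, the Rh-associated glycoprotein, rose by 1.96-fold or more with overlapping groups (adjusted p = 0.00673). TMOD1, the actin cap tropomodulin, was called higher with 0 sensitive and 2 resistant arrays above the limit (75 ± 53.2 and 507 ± 161, adjusted p = 0.000683). The median over the 10 genes was 0.35, against 0.03 over all genes.

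Among 11 measured genes around FGFR1, 9 of them bright, STAR rose, ADAM9 fell and 9 were not called, with a median of 0.00. Over all genes 4.94% rose and 3.46% fell. FGFR1 itself, a receptor tyrosine kinase for fibroblast growth factors, was measured by 4 probe sets. Its best measured one gave 3011, 2926, 3157, 3362 and 4186 in sensitive and 3760, 3979, 2708, 2770 and 4133 in resistant arrays, interleaved (log2 difference 0.05, 95% interval -0.37 to 0.47, adjusted p = 0.942). The others had -0.01, 0.15 and -0.92 (adjusted p = 0.991, 0.805 and 0.307), the last of them the dimmest. Close by, EIF4EBP1, a repressor of cap-dependent translation controlled by mTOR, was 26447 ± 9971 and 25714 ± 5766, and the RNA decay factor LSM1 was 3646 ± 1081 and 2891 ± 389. ASH2L, a core subunit of histone H3 lysine methyltransferases, was 2907 ± 1326 and 3494 ± 641, and TACC1, a protein of the centrosome, 10836 ± 2939 and 8874 ± 1510. PLPBP, a pyridoxal phosphate-binding protein, had differences of -0.47 and -0.60 in its 2 probe sets, of which the second had groups that did not overlap and was not called (5587 ± 814 and 3650 ± 601, adjusted p = 0.0763). Of 13 measured genes of FGF receptor signalling elsewhere, 0 were called by limma and 3 had an unadjusted p under 0.05, and their median was -0.09.

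Kinases, phosphatases and their partners were mostly not called. Of 10 measured, DUSP4 rose and 9 were not called by their best probe set, where 4.94% of all genes rose and 3.46% fell. PPP2CB (not on that list) and PPP2R2A, a catalytic and a regulatory subunit of protein phosphatase 2A, were close to even, at 12482 ± 561 and 12786 ± 1871 and at 12690 ± 2749 and 12244 ± 1668 (95% intervals of the log2 difference -0.34 to 0.39 and -0.46 to 0.39). IKBKB, a kinase that activates NF-kappaB, was 1449 ± 453 and 1203 ± 516 (log2 difference -0.27, adjusted p = 0.705). DOK2, an adaptor protein phosphorylated by BCR-ABL and other kinases, was 564.8, 704.3, 1370, 1819 and 1590 in sensitive and 2197, 2574, 2625, 2604 and 2041 in resistant arrays. Its groups did not overlap, and it narrowly missed the threshold (log2 difference 1.04, 95% interval 0.41 to 1.67, adjusted p = 0.0519).

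Of 3 measured genes of DNA maintenance 0 were called by limma, and 0 had an unadjusted p under 0.05. POLB, the polymerase of base excision repair, was 3934 ± 1693 and 3633 ± 454 (log2 difference 0.00, 95% interval -0.64 to 0.63). WRN, the helicase missing in Werner syndrome, was 1199 ± 283 and 1078 ± 306, and TNKS, a tankyrase that acts at telomeres, 1086 ± 367 and 1076 ± 184. Of 9 measured genes of transcription and chromatin 0 were called by limma, with 1 at an unadjusted p under 0.05, POLR3D, a subunit of RNA polymerase III (4062 ± 1029 and 5446 ± 587, log2 difference 0.44, adjusted p = 0.274). The acetyltransferase gene KAT6A was 6028 ± 455 and 5625 ± 810, and the general transcription factor gene GTF2E2 9640 ± 1616 and 7800 ± 1383. Of 6 genes of RNA handling and translation RBPMS rose and 5 were not called. Beside the counts of these lists, 4.94% of all genes rose and 3.46% fell. INTS10 and INTS9, subunits of the Integrator complex, had differences of -0.30 and 0.30, of opposite sign and neither called.

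Of 4 enzymes of detoxification and redox balance EPHX2 rose and 3 were not called, where 4.94% of all genes rose. GSR, the reductase that regenerates glutathione, was 4409 ± 910 and 5184 ± 994 (log2 difference 0.23, 95% interval -0.22 to 0.68, adjusted p = 0.646). The arylamine acetyltransferase NAT1 was 1696 ± 509 and 1470 ± 232 (adjusted p = 0.812), and its relative NAT2 was above the limit on 1 resistant array and no sensitive one. Of 6 enzymes and carriers of lipids and lysosomes STAR rose, ATP6V1B2 fell and 4 were not called by their best probe set. Over all genes 4.94% rose and 3.46% fell.

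The brightest remaining genes of the arm had differences on both sides of 0. Of 15 genes of membrane traffic and the cytoskeleton, many of them in this bright class, DPYSL2 rose and 14 were not called. The share that rose was 4.94% over all genes. The 25 brightest bright genes without a called probe set had differences between -0.72 and 0.72, with a median of 0.00, 14 of them negative and 22 within 0.5 of 0. VDAC3, a channel of the outer mitochondrial membrane, was 54730 ± 9494 and 46711 ± 9868, and FNTA 30007 ± 6059 and 31205 ± 5131. SLC39A14, a zinc and iron importer, was 18368 ± 2382 and 26930 ± 7437 (log2 difference 0.52, adjusted p = 0.207). The nuclear export factor XPO7 was 12671 ± 2927 and 11825 ± 2098, and SARAF, a brake on calcium entry, 10510 ± 1248 and 11429 ± 2920. MAK16, a ribosome assembly factor, was 6959 ± 1457 and 6148 ± 1532, and R3HCC1 6078 ± 1277 and 6719 ± 1102. PNMA2 was 5230 ± 1691 and 4532 ± 1546, EXTL3, a glycosyltransferase of heparan sulfate synthesis, 4881 ± 815 and 5065 ± 1266, and DCTN6, a subunit of dynactin, 4155 ± 422 and 3704 ± 455. LEPROTL1 was 3237 ± 861 and 4355 ± 450, and ARHGEF10 2978 ± 261 and 3866 ± 389, the last without overlap between groups (adjusted p = 0.284 and 0.249). The median standard error of these 25 differences was 0.21, which sets how small a change could be seen.

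A further 29 bright genes were not called, with differences between -0.50 and 1.04 and a median of -0.03. DOK2 was the highest of them and ENTPD4, a nucleotidase of the Golgi and lysosomes, the lowest (1504 ± 311 and 1023 ± 185, adjusted p = 0.177). MFHAS1, a leucine-rich repeat protein, was 883 ± 254 and 1438 ± 97.1 without overlap (log2 difference 0.67, adjusted p = 0.0642). CLU, which encodes the chaperone clusterin, was split within the sensitive group. Its signals were 266.8, 612, 954.6, 5006 and 3963 in sensitive arrays 1 to 5 and 1384 to 1834 in resistant arrays, so that the resistant arrays lay between the low and the high sensitive ones (log2 difference 0.28, SE 0.62, adjusted p = 0.884).

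The remaining 48 genes were dim and not called, with differences between -0.80 and 0.96. In all, 30 of the 116 genes were above the limit on no array and 86 on at least 1. Among the tumour suppressor candidates of the arm, 12 were measured, 1 rose (DLC1) and 11 were not called; TUSC3, an oligosaccharyltransferase subunit, was above the limit on no array in its 3 probe sets. Of 20 genes of nerve and endocrine signalling DPYSL2 rose, CHRNA6 fell and 18 were not called. Of 7 ADAM family genes ADAM9 fell and 6 were not called, none of the 6 bright. Beside the counts of these lists, 4.94% of all genes rose and 3.46% fell. For genes at background the arrays give no more than an upper bound on the level.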

How the data were processed

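Total RNA of 5 sensitive and 5 resistant samples was hybridised in 1 channel to 10 Affymetrix arrays. The deposited values are probe set intensities that the authors computed with MAS5, per the submitters' processing notes; the labels used here give neither its version nor its settings. On every array their 2% trimmed mean was 2501.33 to 2501.51, so a change of most genes in 1 direction would be scaled away. Of 12625 probe sets, 67 controls were left out.

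Symbols came from the platform annotation: 10943 probe sets had 1 symbol, 545 several and 1070 none. Of those with 1 symbol, 10934 matched the RefSeq gene table of GRCh38.p14, used only for chromosome and order; 1 gene that the rule leaves out is not analysed here. For a gene with several probe sets, the one whose log2 signal averaged highest over the 10 arrays stands for it.

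Differences were fitted with limma 3.58.1 in R 4.3.3 (lmFit and eBayes) on log2(intensity + 114.8), the 20th percentile of all signals, for all 12558 probe sets, after a run on simulated data. The number of arrays limits the precision. Named were every short arm gene with a called probe set and the 25 brightest not called. From the 4 pathway lists outside the arm and the cell type markers, genes called by their best measured probe set were named. A few other list members were named too. DOK2, MFHAS1, ENTPD4, CLU and the not called genes of the lists were chosen after their values were seen. Members and lists were chosen with earlier results of these data known. Alternatives covered pseudocount, floor, scaling, dim probe sets, eBayes prior, probe set choice, replicate block and leaving out each array; those for the order along the arm were added after seeing the data.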

Additional observations from a re-analysis of the deposited data

Results flagged for a closer look

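In 7 of 86 groups of 5 arrays tested, 1 array lay far from the rest by Dixon's criterion for the gap over the range, which chance alone meets in about 1 group of 20. EPHX2 was 314.9 on sensitive array 4, with 31.2 to 52.6 on the others. CHRNA6 was 479.5 on resistant array 3, with 31.7 to 79.1 on the others. STAR was 2312 on that same array, where the others had 4360 to 5275, and 1 RBPMS probe set was 864.2 there against 1805 to 2153. GTF2E2 was 6836 on sensitive array 3, with 9843 to 10835 on the others. PPP2CB was 9570 on resistant array 5, with 12876 to 14338 on the others. MAK16 was 8855 on resistant array 1, with 5082 to 5734 on the others.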

How the results depend on the processing

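Probe sets called lower numbered 5, with 3 to 5 without any 1 array, 2 with signals floored at the limit and 3 with the replicate block; genes called lower numbered 4, with 3 to 4 and, with the floor, 2. Probe sets called higher numbered 13 (11 to 14 without any 1 array, 9 to 16 under other settings) and genes called higher 8 (7 to 9, and 6 to 11). The median of bright short arm genes ran from -0.06 to 0.06 without any 1 array and from -0.13 to 0.00 under other settings. The lowest came from scaling to a common median, which moved the median of all bright genes from 0.02 to -0.10. The difference between the 20 nearest genes on either side of the centromere ran from -0.87 to -0.70. For the dimmer PTK2B probe set, at or below the limit on every array, the floored difference of 0.13 is that of the limits alone. The floor leaves signals below the limit without order. Of 18 called probe sets 10 kept their call throughout and 8 lost it somewhere. Replicate numbers are shared only as numbers: same-numbered arrays correlated at 0.0537 to 0.279 over 5 pairs, and 3 of 5 sensitive arrays correlated best with their own number. With the block 3 probe sets were lower and 13 higher. Signal over background limits 30 genes that exceeded the limit on no array.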
